A study of Mus musculus with 30 samples.

Results

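The genes described here, set apart in livers of mice labelled A1cf-transgenic, are protein-coding: Smpd3, Mgat5, Hsf2bp, Ttc39a, Ifi27l2b, Homer2 and Dmrta1. They are 7 of the 41388 genes of the deposited tables. They were chosen from their values in that liver contrast, so those values are given as a description, with no test. The genes were tested in the hepatocyte and knockout libraries. Earlier results of these data were known when the genes were listed, so those tests may not be independent of the choice. RNA was sequenced from pools of 3 to 4 mice in 6 groups. Livers of 12-month-old mice gave 4 pools labelled A1cf_Tg/+ (below, Tg) beside 4 of wild-type C57BL/6J, and 3 pools labelled A1cf_-/- (below, knockout) beside 3 of wild-type C57BL/6NJ. Hepatocytes of 12-week-old mice, kept overnight on collagen, gave 3 pools labelled A1cf_Tg/+ and 3 of wild-type C57BL/6J. Hepatocytes labelled A1cf_Tg/+ also gave 10 CLIP-seq libraries, in which RNA crosslinked to a precipitated protein is counted. The promoter and the species of the transgene, and whether pools share mice, are not given in the sources used here, so p-values measure the spread between pools.

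A1CF, the product of A1cf, is an RNA-binding protein known as the cofactor of the enzyme that edits Apob mRNA in gut and liver. The listed genes belong to no common pathway. Smpd3 encodes a neutral sphingomyelinase that releases ceramide from membrane sphingomyelin. Mgat5 encodes the Golgi glycosyltransferase that adds a branch to N-glycans of cell-surface proteins. The others are a meiotic recombination factor (Hsf2bp), a tetratricopeptide repeat protein of little known function (Ttc39a), a member of the interferon-inducible IFI27 family (Ifi27l2b), a scaffold of calcium signalling (Homer2) and a transcription factor with a DM DNA-binding domain (Dmrta1).

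Sequence before the RefSeq transcription start was available for 5 of the 7 genes, in 250-base windows from RefSeq (GRCm38.p6). Windows are shown for Mgat5 and Ttc39a, whose levels followed each other most closely over the RNA pools, and for Dmrta1, which was low in Tg livers and abundant in the CLIP libraries. Capitals mark matches, on either strand, to the GC box (GGGCGG) and the CCAAT box (CCAAT). The windows read 5′ to 3′ in the direction of the gene and lie at chr1:127204736-127204985 on the plus strand, chr4:109415397-109415646 on the plus strand and chr4:89687948-89688197 on the plus strand.
Mgat5: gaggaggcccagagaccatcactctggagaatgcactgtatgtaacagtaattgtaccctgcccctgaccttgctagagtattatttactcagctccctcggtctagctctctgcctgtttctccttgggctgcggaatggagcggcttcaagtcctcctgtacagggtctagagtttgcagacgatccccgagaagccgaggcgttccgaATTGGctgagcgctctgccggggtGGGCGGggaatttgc
Ttc39a: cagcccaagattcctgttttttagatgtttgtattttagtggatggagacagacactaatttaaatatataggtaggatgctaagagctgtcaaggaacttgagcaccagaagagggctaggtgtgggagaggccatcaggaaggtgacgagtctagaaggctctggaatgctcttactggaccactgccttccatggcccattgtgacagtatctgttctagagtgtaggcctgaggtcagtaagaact
Dmrta1: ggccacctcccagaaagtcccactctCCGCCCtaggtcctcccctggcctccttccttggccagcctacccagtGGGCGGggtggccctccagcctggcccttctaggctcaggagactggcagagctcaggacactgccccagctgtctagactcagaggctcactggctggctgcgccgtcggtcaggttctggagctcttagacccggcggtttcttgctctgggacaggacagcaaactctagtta
The Mgat5 window held 1 CCAAT box and 1 GC box, the Dmrta1 window held 2 GC boxes, and the Ttc39a window held neither. Over 32851 windows of the same length, 32.7% had a GC box and 33.8% a CCAAT box. The windows of Homer2 and Hsf2bp overlapped annotated exons and are not shown. Homer2's was 83.2% G or C and held 8 GC boxes, while that of Hsf2bp was 50.4% G or C and held none. No window of the 5 held a TATA box (TATAAA, in 12.4% of all windows) or the HNF4 site CAAAGTCCA (in 0.384%). The windows of Ttc39a and Dmrta1 lie inside the gene bodies as annotated in GENCODE M21, which begin at 109406623 and 89679436 on chromosome 4, upstream of the RefSeq starts.

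Totals of the 20 RNA libraries ran from 17044839 to 37211328 counts. A1cf stood at 20.1 to 28.9 counts scaled to the library total (CPM) in knockout livers against 199 to 237 CPM in C57BL/6NJ livers. In Tg livers it stood at 156 to 174 CPM against 216 to 279 CPM in C57BL/6J livers, and in hepatocytes at 7.36 to 10.5 CPM in Tg against 6.46 to 11.0 CPM in wild-type pools. By the edgeR test used below, A1cf fell in Tg livers, at -0.65 ± 0.11 (SE) on the log2 scale (adjusted p = 0.0369). In Tg hepatocytes it was at 0.02 ± 0.24 (adjusted p = 0.962). A1cf counts therefore do not show the transgene, and Tg is used below as the label only. Pool 2 of the C57BL/6J livers stood apart: Xist was at 935 CPM there against 2.26 to 2.35 CPM in the other 3, 4 Y-linked genes summed to 0.751 CPM, and 13 skeletal muscle markers summed to 2410 CPM against 2.46 to 3.65 CPM. In that pool 10 female-biased liver genes summed to 3208 CPM against 65.5 to 247 CPM in the other 3. The 10 male-biased liver genes summed to 186 CPM against 2384 to 6429 CPM. The same muscle markers summed to 25.4 to 135 CPM in knockout livers and to 0.796 to 1.31 CPM in their controls, and 3 adipocyte markers to 74.5 to 167 CPM against 2.06 to 3.31 CPM. Mitochondrial genes took 1.39% to 2.01% of counts in Tg pools 1 and 2 and wild-type pool 1 of the hepatocytes, and 3.14% to 3.71% in the other 3.

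**Figure D1:**
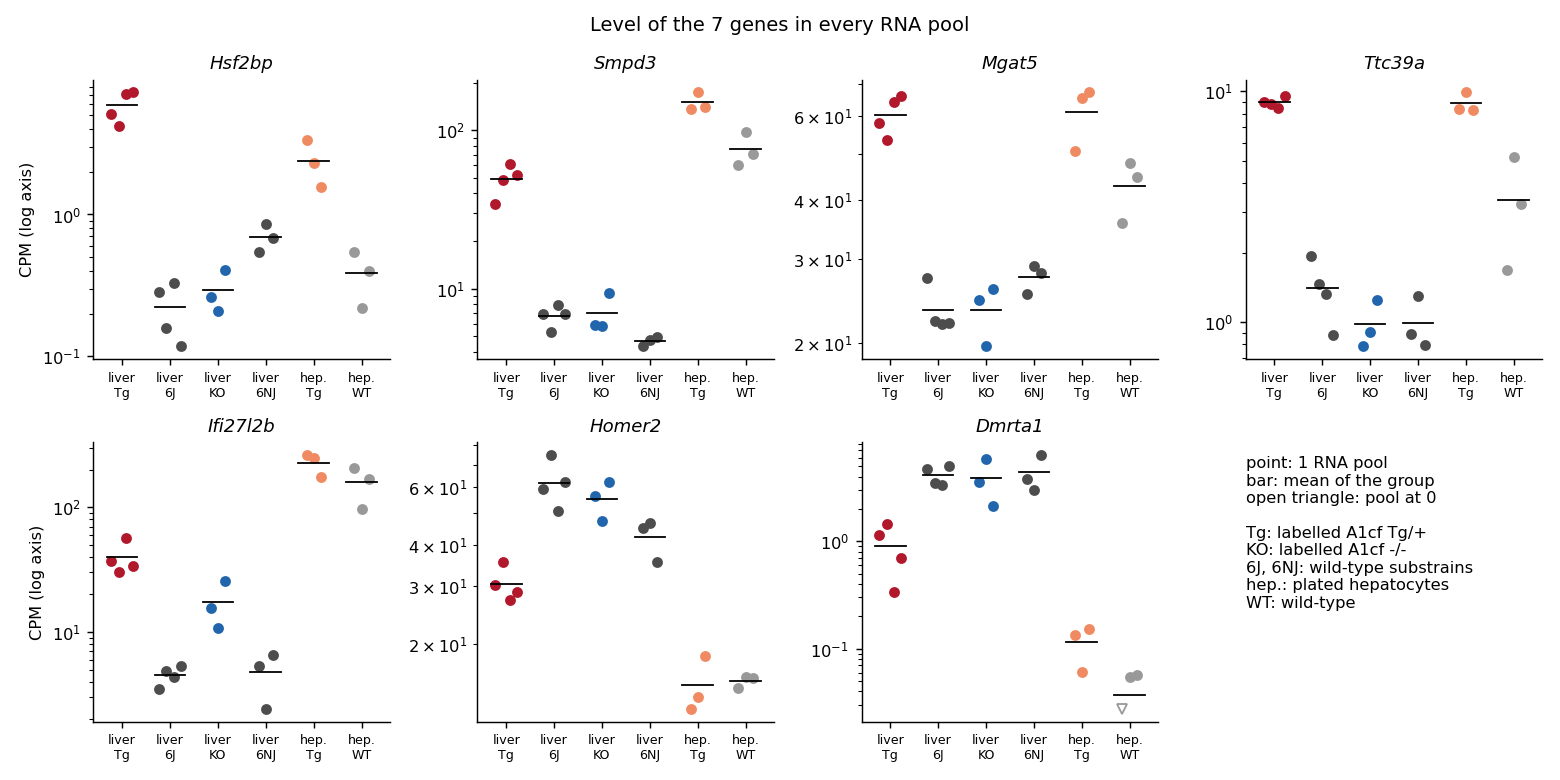
CPM of the 7 genes (log axis, 1 panel per gene) in each of the 20 RNA pools, by group; points are pools, bars group means, and the open triangle a pool at 0. Tg livers lie above all C57BL/6J livers for 5 genes and below all of them for Homer2 and Dmrta1.

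In Tg livers 5 of the genes were higher and 2 lower than in C57BL/6J livers, with no overlap between the 4 and the 4 pools for any of the 7. That was the ground on which they were listed; of all 14110 genes tested there, 11.3% lay wholly above and 2.14% wholly below the controls, 13.4% in all, and 0.971% were called up and 0.361% down, 1.33% in all. On the log2 scale the edgeR estimates were 4.57 ± 0.35 (SE) for Hsf2bp, 2.99 ± 0.22 for Ifi27l2b, 2.71 ± 0.19 for Smpd3, 2.54 ± 0.23 for Ttc39a and 1.23 ± 0.11 for Mgat5. Homer2 stood at -1.15 ± 0.14 and Dmrta1 at -2.30 ± 0.41. Without C57BL/6J pool 2 the estimates were 4.38, 3.00, 2.58, 2.53 and 1.18 for the 5 higher genes, -1.07 for Homer2 and -2.40 for Dmrta1. The 7 hepatocyte markers found summed to 70336 to 81651 CPM in Tg livers against 100733 to 105750 CPM in their controls, and none was at 0. The 5 cholangiocyte markers, none at 0, summed to 51.8 to 126 CPM against 37.3 to 48.2 CPM, and the 4 neutrophil markers, none at 0, to 3.82 to 16.5 CPM against 1.53 to 3.24 CPM. The part of such marker differences in the values of the 7 genes was not tested, and in whole liver fewer cells of a type and less RNA per cell cannot be told apart.

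In Tg hepatocytes 2 of the 6 genes that could be tested rose, Hsf2bp and Smpd3, by the edgeR quasi-likelihood test with Benjamini-Hochberg adjustment over all genes. Of the 13770 genes tested, 3.15% were called, 1.53% up and 1.62% down. Dmrta1 did not pass the filter on low counts. Tg pools lay wholly above wild-type pools for Hsf2bp, Smpd3, Mgat5 and Ttc39a. Of all genes tested 15.7% did so, with 16.8% wholly below and 32.5% in either direction. Dmrta1, outside the tested set, also lay above. Its lowest Tg pool and highest wild-type pool held 2 reads each, so library totals alone set that gap. The median log2 fold change of the 6 tested was 0.79, beside -0.02 for all genes. Several marker sums also separated Tg from wild-type hepatocytes. The 5 T and NK cell markers summed to 469 to 642 CPM in Tg and 203 to 262 CPM in wild-type pools, nearly all of it the chemokine Ccl5, and Cd3e was at 0 in the wild-type pools. The 5 cholangiocyte markers summed to 406 to 670 CPM against 690 to 1223 CPM. Their median log2 fold change went the other way, at 1.31, and none of the 5 was called, so the sum does not stand for each marker. The 10 female-biased liver genes summed to 85.1 to 163 CPM against 10.5 to 20.1 CPM. Of these, 6 were tested, with a median log2 fold change of 0.44, and 2 rose. The 5 B and plasma cell markers summed to 8.12 to 12.5 CPM against 1.41 to 1.70 CPM, the 3 adipocyte markers, with Adipoq at 0 throughout, to 2.41 to 6.03 CPM against 0.0275 to 0.15 CPM, and the 13 muscle markers, most of them at 0, to 17.8 to 47.1 CPM against 4.89 to 12.6 CPM. Their part in the values of the 7 genes was not tested. In knockout livers 1 of the 7, Ifi27l2b, rose and none fell, where 2.98% of 15942 genes were called, 1.50% up and 1.48% down. Knockout pools lay wholly above their controls for Smpd3, Ifi27l2b and Homer2 (12.0% of all genes) and wholly below for Hsf2bp (11.9%, or 23.9% in either direction). The median of the 7 in knockout livers was -0.03, beside -0.01 for all genes. Besides muscle and adipocyte markers, the sums for cholangiocytes (29.6 to 33.4 CPM against 34.8 to 75.4 CPM), stellate cells (437 to 441 CPM against 336 to 373 CPM) and endothelial cells (296 to 302 CPM against 261 to 283 CPM) did not overlap between knockout livers and their controls. Nor did those of the 10 female-biased liver genes (250 to 291 CPM against 97.8 to 204 CPM) and the 4 Y-linked genes (93.6 to 110 CPM against 113 to 116 CPM). The part of these sums was not tested.

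**Figure D2:**
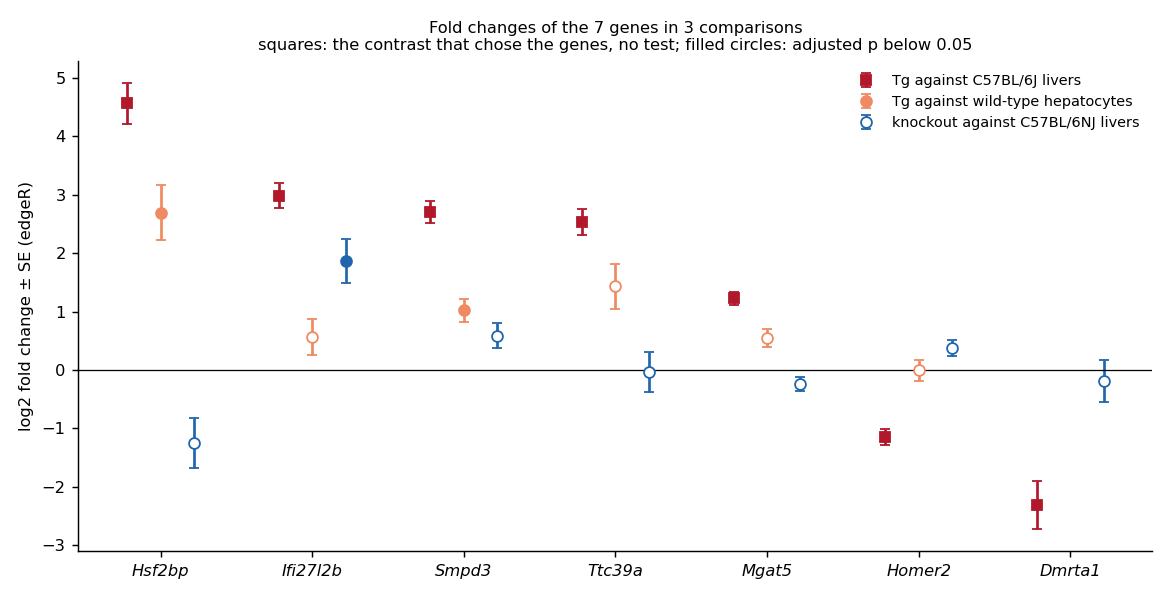
Log2 fold changes with standard errors (edgeR) of the 7 genes in the 3 comparisons; squares are the liver contrast that chose the genes, filled circles have an adjusted p below 0.05 and open circles do not. Hsf2bp and Smpd3 are filled in hepatocytes and Ifi27l2b in knockout livers; Dmrta1 has no hepatocyte value.

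Smpd3 (ENSMUSG00000031906, GRCm38 chromosome 8, 106252548 to 106337988, minus strand) was at 34.2, 48.5, 61.3 and 52.1 CPM in the Tg livers. C57BL/6J livers had 6.90, 5.33, 7.89 and 6.92 CPM. The lowest Tg pool was thus several times above the highest control pool. Tg hepatocytes had 137, 173 and 141 CPM and wild-type hepatocytes 60.2, 97.4 and 70.3 CPM, a rise of 1.02 ± 0.20 (SE) on the log2 scale (edgeR, adjusted p = 0.0476, higher in 3 of 3 pools). Every Tg pool lay above every wild-type pool, and the enzyme's RNA was more abundant in plated hepatocytes of either label than in any liver of a control group. Leaving out Tg pool 1 or 2 ended the call (adjusted p = 0.13 and 0.208), as did leaving out wild-type pool 1 or 3 (0.111 and 0.199), RLE scaling (0.0506) and a filter at a mean of 2 CPM (0.0565). Within the hepatocyte pools of low mitochondrial share the log2 ratio of Tg over wild-type means was 1.36, and within those of high share 0.75. Knockout livers had 5.92, 5.81 and 9.37 CPM and C57BL/6NJ livers 4.33, 4.72 and 4.92 CPM, an estimate of 0.59 ± 0.21 that did not pass (adjusted p = 0.168).

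Of all genes tested, 3.15% were called in hepatocytes, 2.98% in knockout livers and 1.33% in Tg livers. These shares belong beside the counts of each list below. The wider sphingomyelin and ceramide pathway was tested with a list of 33 genes. None passed in any comparison: 0 of 29 in hepatocytes, 0 of 31 in knockout livers and 0 of 30 in Tg livers. Their medians were -0.03, 0.05 and 0.12 on the log2 scale, beside -0.02, -0.01 and -0.00 for all genes. The smallest p-values belonged to Asah1, an acid ceramidase, in hepatocytes (-0.80, adjusted p = 0.0523), to Sptlc3, a subunit of serine palmitoyltransferase, in knockout livers (1.93, adjusted p = 0.0801) and to Cerk, the ceramide kinase, in Tg livers (0.63, adjusted p = 0.0768). Smpd3 overlaps Prmt7 on the opposite strand, and the strand setting of the counting is not given, so reads of the shared stretch cannot be told apart. Prmt7 itself was at -0.22 ± 0.13 in Tg livers (adjusted p = 0.373). The body of Gm26786, annotated from 106237903 to 106425728, spans Smpd3 on the same strand. Whether exons of Gm26786 and Smpd3 overlap was not examined, and no strand setting could separate reads of a shared exon. Gm26786 was at -0.11 ± 0.40 in Tg livers (adjusted p = 0.9) and at 0.64 ± 0.60 in knockout livers (adjusted p = 0.621).

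Mgat5 (ENSMUSG00000036155, chromosome 1, 127205015 to 127488336, plus strand) had the smallest difference of the 5 higher genes. It was at 58.0, 53.4, 64.2 and 66.1 CPM in Tg livers and at 27.4, 22.2, 21.9 and 22.1 CPM in C57BL/6J livers. Control pool 1 stood above the other 3 controls, and the groups did not come near each other. Tg hepatocytes had 50.7, 65.6 and 67.3 CPM and wild-type hepatocytes 35.8, 47.8 and 44.6 CPM. These groups did not overlap, but the estimate of 0.55 ± 0.16 did not pass (edgeR, adjusted p = 0.0924). Knockout livers had 24.6, 19.7 and 26.0 CPM beside 25.4, 29.0 and 28.1 CPM in C57BL/6NJ livers, which overlap (-0.24 ± 0.12, adjusted p = 0.344). The body of Mgat5 overlaps those of Tmem163 and Gm8451 on the opposite strand. Without a stated strand setting, reads of any shared exon cannot be told apart. Both were tested only in knockout livers, at 0.15 ± 0.25 (adjusted p = 0.806) and 0.37 ± 0.28 (0.533).

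Over all genes 3.15% were called in hepatocytes and 1.33% in Tg livers, with medians of -0.02 and -0.00. Of 22 other genes of N-glycan processing and branching, 0 of 19 passed in hepatocytes and 0 of 20 in Tg livers, with medians of -0.27 and -0.07. The smallest p-values there were those of the Golgi mannosidases Man2a2 in hepatocytes (-0.59, adjusted p = 0.0618) and Man1a in Tg livers (-0.39, adjusted p = 0.0731). In knockout livers 2.98% of all genes were called, with a median of -0.01 over all genes. On this list 2 of 20 rose there and none fell, with a median of -0.04. These were the sialyltransferase St3gal6 (1.25 ± 0.14, adjusted p = 0.00198) and Fut8, which adds the core fucose (0.67 ± 0.14, adjusted p = 0.0404). The call of Fut8 was lost without any 1 of the 6 pools (adjusted p 0.0613 to 0.187), and St3gal6 kept its call in those 6 fits. With knockout pool 2 as the only knockout pool, assumed to vary like the controls, the estimates were 1.26 for St3gal6 (adjusted p = 0.105) and 0.72 for Fut8 (0.485). In 1 fit over all 20 libraries they were 1.27 (0.562) and 0.69 (0.571), so the calls were lost while the estimates stayed near those above.

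Hsf2bp (ENSMUSG00000002076, chromosome 17, 31944769 to 32034508, minus strand) encodes a protein that binds the heat shock factor HSF2 and the recombination protein BRCA2 and is known from meiosis. It was near the floor in control livers and showed the greatest fold of the 7 in Tg livers. Tg livers had 5.08, 4.22, 7.10 and 7.27 CPM. C57BL/6J livers had 0.285, 0.158, 0.331 and 0.117 CPM, which are 5, 4, 6 and 2 reads. Tg hepatocytes had 3.33, 2.31 and 1.57 CPM and wild-type hepatocytes 0.541, 0.220 and 0.398 CPM. The lowest Tg pool lay well above the highest wild-type pool, and the rise of 2.69 ± 0.47 (SE) passed the edgeR test (adjusted p = 0.0363, higher in 3 of 3 pools). Leaving out 1 pool ended that call for Tg pools 1 (adjusted p = 0.118) and 2 (0.153) and for each of the wild-type pools (0.0838, 0.0932 and 0.172). Within the pools of low mitochondrial share the log2 ratio of means was 2.38, and within those of high share 2.34. In knockout livers the values were 0.261, 0.209 and 0.406 CPM and in C57BL/6NJ livers 0.541, 0.855 and 0.679 CPM. All knockout pools lay below all controls, and the estimate of -1.25 ± 0.43 did not pass (adjusted p = 0.161).

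Both lists around Hsf2bp stayed mostly uncalled. Of 10 heat shock factors and heat shock proteins none passed in hepatocytes (0 of 10), knockout livers (0 of 10) or Tg livers (0 of 9), and the smallest p-values were those of Dnajb1 (0.32, adjusted p = 0.197), Hsp90aa1 (-0.67, adjusted p = 0.159) and Hsph1 (-0.62, adjusted p = 0.166). Their medians were -0.08, 0.03 and -0.23. Of the BRCA2 and meiotic recombination genes, 1 of 7 rose in hepatocytes, with a median of -0.78, and none passed among 7 in knockout livers (median -0.30; smallest p for Meiob, -0.43, adjusted p = 0.258) or 6 in Tg livers (median 0.23; smallest p for Palb2, 0.82, adjusted p = 0.148). The one that rose was 4930432K21Rik, now named Brme1, whose protein is a partner of HSF2BP in meiotic cells. It was at 0.967, 1.28 and 0.765 CPM in Tg hepatocytes and at 0.240, 0.110 and 0.285 CPM in wild-type hepatocytes. The groups did not overlap, and the edgeR estimate was 2.28 ± 0.44 (adjusted p = 0.0471). Its call was lost without Tg pool 1 (0.153) or 2 (0.219) and without wild-type pool 1 (0.114), 2 (0.11) or 3 (0.171). In livers the gene had 0 to 10 reads a pool and was not tested. Spata22, a further gene of that list, had no match in the tables.

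Ttc39a (ENSMUSG00000028555, chromosome 4, 109406623 to 109444745, plus strand) was at 8.96, 8.84, 8.50 and 9.55 CPM in Tg livers. C57BL/6J livers had 1.94, 1.46, 1.32 and 0.880 CPM. Every Tg pool lay several times above the highest control pool. Tg hepatocytes had 8.38, 9.89 and 8.30 CPM and wild-type hepatocytes 1.68, 5.19 and 3.24 CPM, and the estimate of 1.43 ± 0.38 did not pass (edgeR, adjusted p = 0.0827). Wild-type pool 1 was the lowest of the 6 by far, and no wild-type pool reached a Tg pool. Within the pools of low mitochondrial share the log2 ratio of means was 2.44, and within those of high share 0.98. With these sets as a term, a fit chosen after seeing the data, Ttc39a passed (1.68, adjusted p = 0.0204), as did Mgat5 (0.64, adjusted p = 0.0133). Knockout livers had 0.784, 0.904 and 1.25 CPM and C57BL/6NJ livers 0.888, 1.30 and 0.792 CPM, which overlap throughout (-0.03 ± 0.34, adjusted p = 0.975).

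Ttc39aos1, an antisense transcript annotated 0.468 kb upstream of Ttc39a on the minus strand, rose in Tg livers too. It had 18, 32, 22 and 25 reads in Tg livers (0.983 to 1.61 CPM) and 3, 5, 3 and 2 reads in C57BL/6J livers (0.117 to 0.198 CPM). All Tg pools lay above all controls, with an edgeR estimate of 2.75 ± 0.32 (adjusted p = 0.00771). The bodies of the genes do not overlap in the annotation, but without a stated strand setting reads from either strand of that stretch cannot be told apart. In hepatocytes it was at 0.74 ± 0.52 (adjusted p = 0.345). Of the other TTC39 genes, 2 were tested in each comparison and none passed: the smallest p-values were those of Ttc39c in hepatocytes (0.54, adjusted p = 0.0746) and Ttc39b in knockout livers (-0.24, adjusted p = 0.181) and Tg livers (-0.37, adjusted p = 0.131).

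**Figure D3:**
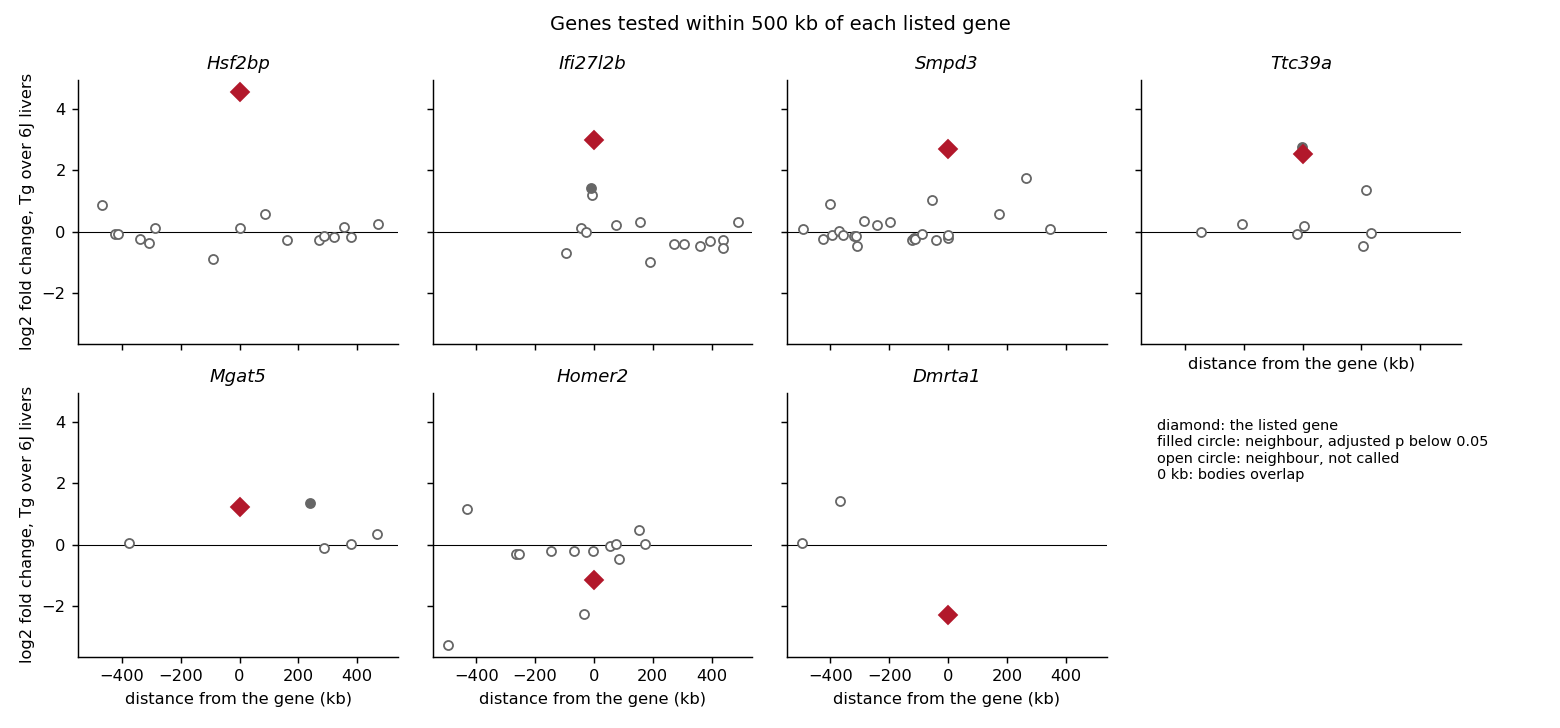
Log2 fold changes in Tg over C57BL/6J livers of genes tested within 500 kb of each listed gene, against distance in kb (negative to the left on the chromosome); diamonds are the listed genes and filled circles neighbours with an adjusted p below 0.05. The 3 filled neighbours are Ttc39aos1, Ifi27 and Acmsd; open circles lie between -3.27 and 1.74.

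Genes around the 7 mostly did not pass, and neither did most genes tested. The share called over all genes was 1.33% in Tg livers, 3.15% in hepatocytes and 2.98% in knockout livers. Within 500 kb of Hsf2bp 0 of 16 tested neighbours passed in Tg livers, near Smpd3 0 of 23, near Homer2 0 of 13 and near Dmrta1 0 of 2. Near Mgat5 1 of 5 rose, Acmsd (1.35 ± 0.20, adjusted p = 0.0215), an enzyme of tryptophan breakdown that lies 241 kb away. Its call was lost without Tg pool 3 (0.0533) or 4 (0.0718) and without control pool 1 (0.0618), 3 (0.0617) or 4 (0.0887). Near Ttc39a 1 of 8 rose, Ttc39aos1, and near Ifi27l2b 1 of 15, Ifi27. The nearest tested gene to Hsf2bp was Rrp1b, on the other strand and 1.59 kb from the gene as the tables give it, at 0.11 ± 0.13 in Tg livers (adjusted p = 0.678). Whamm, 3.65 kb from Homer2, was at -0.21 ± 0.12 (adjusted p = 0.357), and Rnf11, 6.35 kb from Ttc39a, at 0.18 ± 0.11 (adjusted p = 0.381). For Dmrta1 the nearest tested gene was Cdkn2b, 368 kb away (1.41 ± 0.36, adjusted p = 0.0793). In the other comparisons Nrd1 near Ttc39a fell in hepatocytes (-0.69, adjusted p = 0.041), and in knockout livers Cdh1 near Smpd3 (-1.20, 0.0216), Eps15 near Ttc39a (-0.62, 0.0328) and Btbd1 near Homer2 (-0.47, 0.0263) fell while B430119L08Rik near Ifi27l2b rose (0.48, 0.0288). Each of these 5 calls was lost without at least 1 pool, at adjusted p of up to 0.22 for Nrd1, 0.0966 for Cdh1, 0.121 for Eps15, 0.138 for Btbd1 and 0.167 for B430119L08Rik.

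Ifi27l2b (ENSMUSG00000021208, chromosome 12, 103450898 to 103457223, minus strand) belongs to a family of small interferon-inducible mitochondrial proteins. It was the only one of the 7 called in knockout livers, and it was higher in livers of both A1cf labels than in their controls. Tg livers had 37.3, 30.0, 57.1 and 34.0 CPM and C57BL/6J livers 3.48, 4.86, 4.36 and 5.34 CPM. Knockout livers had 15.6, 10.7 and 25.6 CPM and C57BL/6NJ livers 5.37, 2.42 and 6.56 CPM. Neither pair of groups overlapped, and the rise in knockout livers was 1.86 ± 0.37 (SE; edgeR, adjusted p = 0.0328, higher in 3 of 3 pools). The call was lost without knockout pool 1 (adjusted p = 0.0962) or 3 (0.101) and without control pool 2 (0.0756). Knockout pools 1 and 3, with muscle markers at 135 and 109 CPM, had more Ifi27l2b than knockout pool 2, with 25.4 CPM. Pool 3 had more Ifi27l2b than pool 1. C57BL/6J pool 2, with these markers at 2410 CPM, had 4.86 CPM of Ifi27l2b, inside the range of its group. The part of muscle RNA in these values was not tested. With pool 2 as the only knockout pool, assumed to vary like the controls, the estimate was 1.14 (adjusted p = 0.567). In hepatocytes of either label the gene was far above all livers, at 261, 246 and 173 CPM in Tg and 207, 97.5 and 169 CPM in wild-type pools. These overlap, and the estimate of 0.57 ± 0.31 did not pass (adjusted p = 0.243).

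Ifi27 and Ifi27l2a, the relatives beside Ifi27l2b on the chromosome, moved as follows. Ifi27, 10.7 kb away, had 163, 134, 156 and 113 CPM in Tg livers and 42.4, 43.8, 43.1 and 61.5 CPM in C57BL/6J livers. It rose by 1.43 ± 0.18 on the log2 scale (edgeR, adjusted p = 0.00887; 0.0568 without control pool 3). In knockout livers it had 111, 99.3 and 119 CPM beside 56.3, 50.7 and 48.5 CPM, a rise of 1.07 ± 0.10 (adjusted p = 0.00085). With pool 2 as the only knockout pool, assumed to vary like the controls, the estimate was 0.91 (adjusted p = 0.0713). All pools of either label lay above all of their controls. In hepatocytes Ifi27 was at 0.49 ± 0.19 (adjusted p = 0.15). Ifi27l2a, 7.22 kb away, did not pass in any comparison, at 1.19 ± 0.32 in Tg livers (adjusted p = 0.0972), 0.71 ± 0.22 in knockout livers (0.133) and 1.26 ± 0.26 in hepatocytes (0.0523). The treatment of reads that align to several members of this family is not given, so a division of reads among near-identical copies is uncertain.

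**Figure D4:**
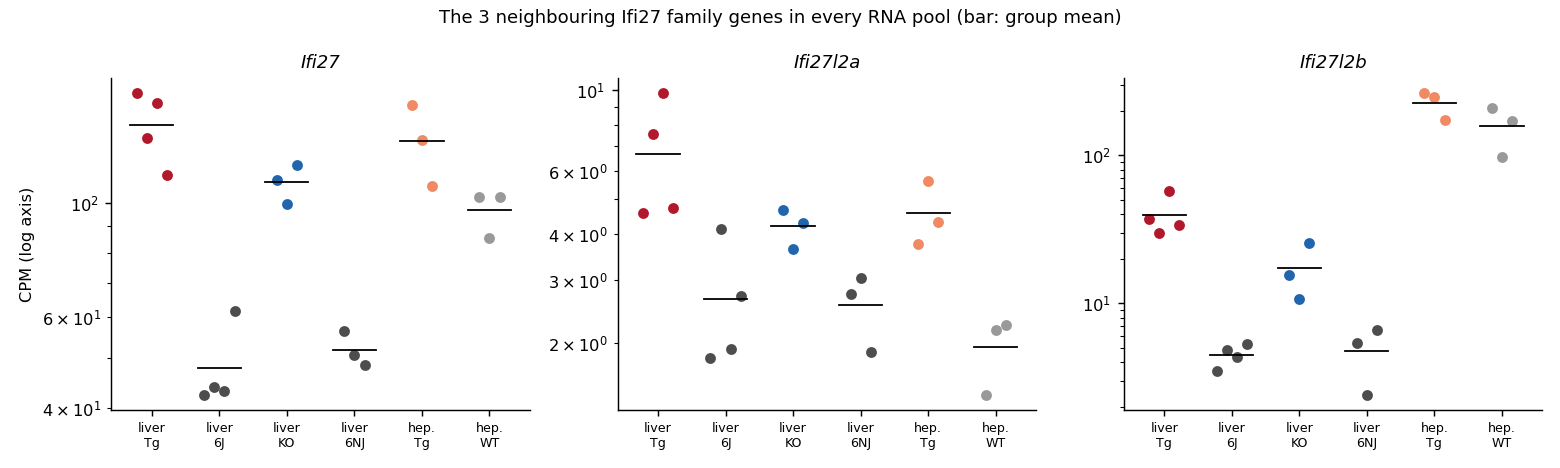
CPM (log axis) of Ifi27, Ifi27l2a and Ifi27l2b in each of the 20 RNA pools by group, with group means as bars. Tg and knockout livers lie above their own control livers in all 3 panels; Ifi27l2b alone is far higher in hepatocytes than in livers.

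Of 28 genes of the IFI27 family and the interferon-stimulated set, Ifi27 and Ifi27l2a included, 1 rose in Tg livers and 1 in knockout livers, Ifi27 in both, and none fell. Over all genes 1.33% and 2.98% were called. Medians were 0.66 in Tg livers and 0.29 in knockout livers, beside -0.00 and -0.01 for all genes. In hepatocytes 3 of 28 rose and none fell, where 3.15% of all genes were called, with a median of 0.42 beside -0.02. They were the oligoadenylate synthetase genes Oas2 (2.00 ± 0.19, adjusted p = 0.00955) and Oas3 (1.54 ± 0.17, 0.0142) and the related Oasl1 (1.28 ± 0.15, 0.016). All 3 calls were lost without Tg pool 2 (0.0587, 0.0929 and 0.0929) or wild-type pool 3 (0.069, 0.111 and 0.112), those of Oas3 and Oasl1 also without Tg pool 1 (0.0624 and 0.066), and that of Oasl1 without wild-type pool 1 (0.0627). The marker sums of other cell types that differed between these pools are given with the hepatocyte counts above.

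Homer2 (ENSMUSG00000025813, chromosome 7, 81600481 to 81706925, minus strand) encodes a scaffold that ties glutamate receptors to calcium channels of internal stores. Tg livers had 30.3, 35.5, 27.2 and 28.8 CPM and C57BL/6J livers 59.2, 74.8, 50.7 and 62.1 CPM. Control pool 2, the one with high Xist, female-biased and muscle RNA, was the highest, and the other 3 controls lay above all Tg pools as well. Hepatocytes showed no such gap, with 12.7, 13.8 and 18.5 CPM in Tg and 14.7, 15.9 and 15.8 CPM in wild-type pools. The wild-type values lay inside the Tg range (-0.01 ± 0.18, edgeR adjusted p = 0.981). Knockout livers had 56.2, 47.2 and 61.8 CPM and C57BL/6NJ livers 45.0, 46.6 and 35.5 CPM, without overlap but short of the threshold (0.37 ± 0.14, adjusted p = 0.189). Among 18 genes of the HOMER family and its binding partners, 0 of 11 passed in hepatocytes, 0 of 12 in Tg livers and 1 of 14 in knockout livers, with medians of -0.50, 0.02 and 0.20. Ryr1, the calcium release channel of skeletal muscle, was the one that rose (4.43 ± 0.73, adjusted p = 0.0136). The knockout pools also held more muscle marker RNA, and its call was lost without control pool 2 (3.97, adjusted p = 0.0595), with pool 2 as the only knockout pool (2.46, 0.426) and in 1 fit over all 20 libraries (4.44, 0.552). The smallest p-values elsewhere were those of the inositol trisphosphate receptor Itpr2 in hepatocytes (-0.94, adjusted p = 0.0543) and of Homer3 in Tg livers (0.86, adjusted p = 0.131).

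Dmrta1 (ENSMUSG00000043753, chromosome 4, 89679436 to 89694772, plus strand) was lower in Tg livers, at 1.15, 1.46, 0.338 and 0.705 CPM, than in C57BL/6J livers, at 4.73, 3.48, 3.36 and 5.05 CPM. Tg pool 3 was the lowest, and the highest Tg pool had less than the lowest control. Knockout livers had 3.56, 5.88 and 2.13 CPM and C57BL/6NJ livers 3.79, 2.98 and 6.33 CPM, which overlap (-0.20 ± 0.36, edgeR adjusted p = 0.818). Hepatocytes held next to none of this RNA: 5, 2 and 4 reads in Tg pools and 0, 2 and 2 reads in wild-type pools, or 0.134, 0.0609, 0.153, 0, 0.0549 and 0.0569 CPM. The gene was not tested there. Few other DMRT genes could be tested: of 7 on the list, 2 were tested in hepatocytes, 1 in knockout livers and 0 in Tg livers, and none passed. The smallest p-values were those of Dmrta2 in hepatocytes (-0.64, adjusted p = 0.303) and Dmrt2 in knockout livers (-0.22, adjusted p = 0.907).

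In the CLIP libraries of Tg hepatocytes, Dmrta1 was the one gene of the 7 with counts throughout. It had 17, 37, 25, 39, 23, 43, 31, 17, 25 and 20 counts in libraries 1 to 10, out of 6151 to 10902 counts a library. The share ran from 0.175% (95% Wilson interval 0.110% to 0.281%) in library 1 to 0.536% (0.389% to 0.737%) in library 2, intervals that cover counting error only. Summed over libraries it had 277 of 80854 counts, or 0.343%, and ranked 33 among 5652 genes with any count. In RNA of Tg hepatocytes the same gene had 11 of 96205480 counts. It was one of 81 genes with a count in every CLIP library, and 32 of those stood under 1 CPM in Tg hepatocyte RNA. Mgat5 and Homer2 had 1 count each in all 10 libraries together, and Smpd3, Hsf2bp, Ttc39a and Ifi27l2b had 0. The limit taken for a count of 0 was the share of 3 counts, 0.0275% to 0.0488% by library. The upper 95% Wilson limits for a count of 0 were higher, at 0.0352% to 0.0624%. No control precipitate is labelled, so the counts are levels and not a measure of binding, and which part of the Dmrta1 locus the reads came from is not given by counts per gene.

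**Figure D5:**
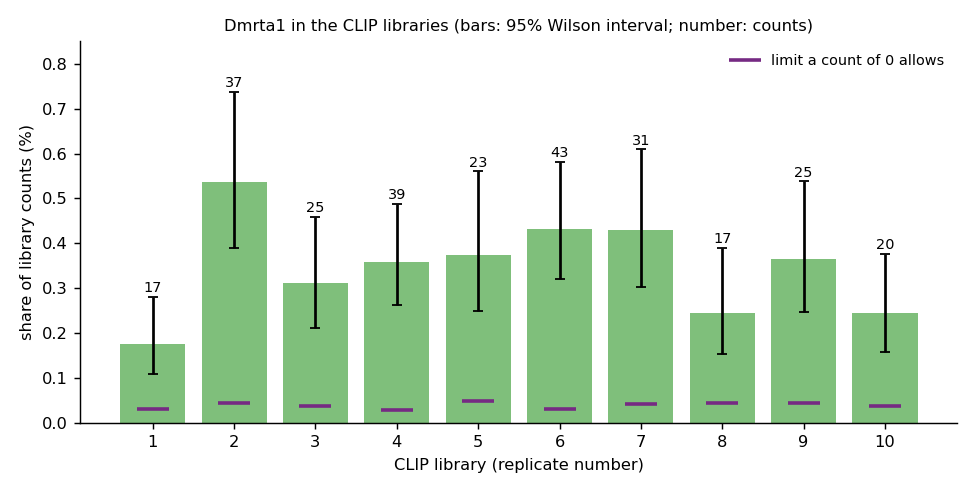
Share of library counts (%) of Dmrta1 in each of the 10 CLIP libraries with 95% Wilson intervals. Numbers are counts, and purple marks the share of 3 counts, taken as the limit for a count of 0. Shares run from 0.175% to 0.536%.

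Levels differed widely among the 7 genes when compared per length, in deposited RPKM, which is CPM divided by gene length in kilobases. In wild-type hepatocytes Ifi27l2b had 144 ± 50.8 RPKM (SD, n = 3), Smpd3 14.8 ± 3.73, Mgat5 4.16 ± 0.60, Homer2 1.39 ± 0.06, Ttc39a 0.688 ± 0.36, Hsf2bp 0.130 ± 0.05 and Dmrta1 0.00889 ± 0.0077. In C57BL/6J livers the order was Homer2, Ifi27l2b, Mgat5, Smpd3, Dmrta1, Ttc39a and Hsf2bp, from 5.53 ± 0.89 down to 0.0749 ± 0.03 RPKM (SD, n = 4). Between these orders 6 of the 7 genes changed place, and Mgat5 was the third in both. Cell preparation and age differ between those samples and cannot be told apart. By mean CPM, hepatocytes of either label were the highest groups for Smpd3 and Ifi27l2b, and they were the lowest groups for Homer2 and Dmrta1. For Smpd3 the ranges of wild-type hepatocytes and Tg livers overlapped. Those of Tg and wild-type hepatocytes overlapped for Ifi27l2b and Homer2. The ranges of Tg hepatocytes and Tg livers overlapped for Mgat5 and Ttc39a, which took the first 2 places for both genes. Among control livers, the ranges of C57BL/6J and C57BL/6NJ pools overlapped for Mgat5, Ttc39a, Ifi27l2b and Dmrta1. Those of Hsf2bp, Smpd3 and Homer2 did not, with Hsf2bp higher and Smpd3 and Homer2 lower in C57BL/6NJ livers. Of 13870 genes tested in both liver comparisons, 13.9% lay wholly higher and 16.1% wholly lower in C57BL/6NJ livers, 30.1% in all.

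The higher genes other than Ifi27l2b followed one another over the 20 RNA pools. For log2 CPM less the mean of each experiment's wild-type pools, Pearson's r lay between 0.88 and 0.95 for the 6 pairs among Hsf2bp, Smpd3, Mgat5 and Ttc39a. Ifi27l2b had r of 0.61 to 0.83 with those 4, and Homer2 and Dmrta1 had 0.78 with each other. These values are descriptions over pools that share the contrast used to choose the genes. Among 11905 named genes averaging 2 CPM or more, those most like Hsf2bp were Mgat5 (0.95), Mcm2 (0.95), a subunit of the replicative helicase, and Tmem51 (0.93). Smpd3 was most like Cyp2d41-ps (0.95), Cyp2d12 (0.94) and Arhgap27 (0.93). Mgat5 and Ttc39a had each other at 0.95 and then Smpd3 (0.91 and 0.92) and Cyp21a1, the steroid hydroxylase of the adrenal (0.91 and 0.91). Nearest to Ifi27l2b were its neighbour Ifi27 (0.94), Lrtm2 (0.92) and Cygb, a globin of stellate cells (0.90). For Homer2 they were Acot4 (0.90), an acyl-CoA thioesterase, Plpp3 (0.89) and Ttll5 (0.89), and for Dmrta1 Ctif (0.90), Apoa5 (0.89), an apolipoprotein that controls plasma triglyceride, and Rab6b (0.89).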

How the data were processed

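RNA-seq gene counts of 20 pooled libraries and CLIP-seq gene counts of 10 libraries were used. The deposited counts are whole reads per gene. The deposited CPM values are counts scaled to each library's total, and the deposited RPKM values divide these by gene length in kilobases. Per the submitters' processing notes, STAR 2.0.4b, featureCounts 1.45, Subread and bcl2fastq were used with GRCm38. The strand setting, the annotation release and the handling of reads with several alignments are not given in the sources used here. The members and gene lists were chosen with earlier results of these data known.

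Counts were tested with edgeR 4.0.16 in R 4.3.3 (filterByExpr with a minimum count of 10 and total of 15, TMM scaling, quasi-likelihood F-test, Benjamini-Hochberg over all genes tested, threshold 0.05), within each comparison's own libraries and without covariates. The same code was tested on simulated data. Library totals ran from 17044839 to 37211328 counts for RNA and from 6151 to 10902 for CLIP, and Wilson intervals and limits for 0 cover counting error only. Replicates differed by more than counting noise. Alternatives were upper quartile and RLE scaling, no filter, a mean of at least 2 CPM, DESeq2 1.42.0, a replicate block, 1 fit over all 20 RNA libraries, leaving out each library and leaving out livers whose muscle markers exceeded 10 times the median liver. A term for hepatocyte pools of low or high mitochondrial share was added after the data were seen. Besides the members, the text names per list and comparison up to 4 called genes of smallest p (or the 1 of smallest p), per member the 3 genes of highest r and, within 500 kb, the nearest and the called neighbours, some of them by count only. CLIP counts were described as shares. Promoter windows came from RefSeq (GRCm38.p6), and exons from GENCODE M21.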

Additional observations from a re-analysis of the deposited data

Results flagged for a closer look

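In 31 groups of 4 to 10 values, 9 had a sample far from the others. Among Tg livers this was pool 4 for Xist, at 3.91 CPM. Among C57BL/6J livers it was pool 1 for Mgat5 (27.4 CPM) and for A1cf (279 CPM), pool 4 for Ifi27 (61.5 CPM), and pool 2 for Xist (935 CPM), the summed muscle markers (2410 CPM) and the summed Y-linked genes (0.751 CPM). Among CLIP libraries it was library 3 for Mgat5 (124 CPM) and library 4 for Homer2 (91.7 CPM), each of which is a single count.

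Dmrta1 lay below its controls in every Tg liver and above its controls in every Tg hepatocyte pool. The log2 ratio of mean CPM was -2.19 in livers and 1.64 in hepatocytes, the latter from 11 against 4 reads, and the difference was not tested. Dmrta1 also took 0.343% of all CLIP counts, which lie outside the RNA comparisons and have no control precipitate beside them.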

How the results depend on the processing

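In hepatocytes the number of genes called was 434, and 669 without a filter, 2026 with DESeq2, 21 with the replicate block, 4323 in 1 fit over all 20 libraries, 2750 with the mitochondrial share term and 0 to 4934 with a library left out. It was 0 without wild-type pool 3, where 2402 genes had an unadjusted p below 0.05 in edgeR. Of the members, 2 were called there, but 1 with RLE scaling, 0 at a mean of 2 CPM, 4 with DESeq2, 0 with the replicate block, 4 in 1 fit over all 20 libraries, 4 with the mitochondrial share term and 0 to 4 with a library left out. Homer2 there turned from -0.01 to 0.0428 with upper quartile scaling, 0.0051 with RLE scaling, 0.0299 without a filter, 0.0040 with DESeq2, 0.17 in 1 fit over all 20 libraries and 0.0618 with the mitochondrial share term, and ran from -0.13 to 0.0802 with a library left out.

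In knockout livers 475 genes were called, and 1079 without a filter, 892 with DESeq2, 42 in 1 fit over all 20 libraries, 55 without libraries high in muscle markers and 137 to 645 with a library left out. The 1 member called became 0 without libraries high in muscle markers and 0 to 1 with a library left out. Dmrta1 turned to 0.40 without libraries high in muscle markers and ran from -0.61 to 0.17 with a library left out, and Ttc39a ran from -0.26 to 0.23. In Tg livers 188 genes were called, and 1242 with DESeq2, 44 with the replicate block, 991 in 1 fit over all 20 libraries, 385 without libraries high in muscle markers and 27 to 561 with a library left out. The cause of these changes was not tested.

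Replicate numbers did not pair the samples: deviations of same-numbered pools correlated at 0.69, -0.51 and -0.03 in hepatocytes, 0.06, 0.04 and 0.01 in knockout livers and -0.02, -0.15, -0.15 and 0.04 in Tg livers. With the replicate block the adjusted p was 0.0662 for Hsf2bp and 0.0657 for Smpd3 in hepatocytes. Other named calls it ended were those of 4930432K21Rik (0.0956), Oas2 (0.0547), Oasl1 (0.0547) and Nrd1 (0.0851) in hepatocytes, Fut8 (0.0585), Eps15 (0.0545) and Btbd1 (0.0524) in knockout livers, and Ttc39aos1 (0.0551) and Ifi27 (0.0687) in Tg livers. Depth limits Dmrta1 in hepatocytes and Hsf2bp in C57BL/6J livers, where a pool held 0 to 6 reads.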
